A study of Mus musculus with 14 samples.

Results

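Replication-dependent histone genes were described here in the lactating mammary gland of Wap-Tbrg4 heterozygous mice. Members were the genes whose symbol begins with Hist1h to Hist4h followed by a class of H1, H2A, H2B, H3 or H4. Of 20550 genes listed in the total RNA-seq tables, 3 met this rule, *Hist1h2bc*, *Hist1h2be* and *Hist1h2bp*. All 3 encode histone H2B and lie in the Hist1 cluster on chromosome 13, so levels of the classes H1, H2A, H3 and H4 and of the clusters Hist2 to Hist4 were not analysed here. Of the 3 genes, *Hist1h2bc* was high, *Hist1h2be* was low and *Hist1h2bp* was listed at 0 in both mice.

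RNA-seq was done on total RNA from whole mammary tissue of 2 mice (labelled replicates 1 and 2) on day 10 of lactation (L10). Both carried a wild type (wt) allele and a Wap-Tbrg4 allele, in which a CRISPR-Cas9 deletion in C57BL/6 zygotes joined the regulatory region and first exon of *Wap*, the whey acidic protein gene, to *Tbrg4*, a regulator of mitochondrial RNA. The study asked whether the *Wap* super-enhancer can drive the promoter of an unrelated gene. Both mice belong to 1 genotype, the age of the mice is not given in the sources used here, and 12 ChIP-seq samples were not analysed here. No comparison between groups, and no test, was therefore possible, and each value is given per mouse and as mean ± SD (n = 2). FPKM is the number of fragments on a feature scaled to its length and to a measure of library size. How that measure was set is not given in the sources used here. Values are listed for exons and for introns with 1 decimal.

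Replication-dependent histone genes supply the bulk of chromatin protein when DNA is copied. Their transcripts usually have no intron and no poly(A) tail. They end instead just after a short stem-loop, which is bound by SLBP, the stem-loop binding protein, and cut after it by a complex that includes the U7 snRNP. Histone variants such as H3.3 and H2A.Z are made throughout the cell cycle from ordinary genes with introns and poly(A) tails. A few H2B genes, in addition to the stem-loop form, make a spliced form with a poly(A) tail in cells that no longer divide.

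The stem-loops of the 3 genes are shown first, because they mark these transcripts as replication-dependent and because the annotated transcripts differ in whether they keep them. Each line gives the sequence 5′ to 3′, read from the GRCm38 (mm10) genome, with the 16-base hairpin in capitals.
*Hist1h2bc*: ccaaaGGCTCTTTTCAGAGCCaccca
*Hist1h2be*: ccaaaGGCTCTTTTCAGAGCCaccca
*Hist1h2bp*: acaaaGGCTCTTTTCAGAGCCaccca

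The hairpin itself was the same in all 3 genes. In *Hist1h2bc* it lies at chr13:23684647-23684662 on the plus strand, and 34 bases separate it from the stop codon. In *Hist1h2be* it lies at chr13:23585531-23585546 on the minus strand, 29 bases after the stop codon, and in *Hist1h2bp* at chr13:21787923-21787938 on the plus strand, 27 bases after it. In GENCODE M21, 70 genes met the symbol rule and 67 of them were protein-coding with a reading frame. The hairpin searched for had 16 bases, starting with GG and ending with CC. It had a 6-base stem, with at most 1 unpaired position, and a 4-base loop starting with TT. Within the 150 bases after the stop codon, it was found in 63 of these 67 genes (94.0%). This compares with 104 of 21951 protein-coding genes (0.474%). The letters shown above were the most frequent form and were present in 41 of the 67 genes.

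The 3 listed genes differed from most of their family in having an annotated intron. Of the 67 genes, 62 had 1 exon in GENCODE M21, and none of the 62 was listed. The other 5, *Hist1h2bc*, *Hist1h2be*, *Hist1h2bp*, *Hist1h2bq* and *Hist1h2br*, had a transcript of 2 or more exons, and 3 of these 5 were listed. The same division held over all protein-coding genes, of which 36 of 1328 genes with 1 exon (2.71%) and 18262 of 20596 genes with more exons (88.7%) were listed. The values below therefore describe the intron-containing H2B genes and cannot be read as the output of the whole histone family.

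*Hist1h2bc* has 2 kinds of annotated transcript. The stem-loop form, annotated in RefSeq, is a single exon at chr13:23684199-23684667 (469 bp) that ends 5 bases past the hairpin. The spliced form joins exon 1 at chr13:23684199-23684621, which holds the whole coding sequence, to an untranslated exon 2 that starts at chr13:23692176 and ends at 23692480 in RefSeq and at 23692908 in GENCODE. Its splice donor lies 9 bases past the stop codon, so the hairpin falls in the 7554 bp intron. The junctions are shown because they decide which 3′ end the transcript has, with the first and last 2 bases of the intron in capitals, and the end of the RefSeq spliced form is shown with its poly(A) signal, AATAAA, in capitals.
*Hist1h2bc* donor: tgatcctgccaaGTaagcct
*Hist1h2bc* acceptor: ccctctctacAGgaggagca
*Hist1h2bc* spliced end: atatatAATAAAtgtcatgtaaag

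The signal starts 19 bases before that end. AATAAA was found in the last 40 bases of the transcript in 53.3% of protein-coding genes, taking the GENCODE transcript with the longest coding sequence of each. It was absent from the last 40 bases of the stem-loop forms of all 3 genes. The same held for some spliced forms, namely the longer GENCODE form of *Hist1h2bc*, all those of *Hist1h2be* and a RefSeq form of *Hist1h2bp* with 3 exons. The signal therefore does not separate the spliced from the stem-loop forms.

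*Hist1h2be* is arranged in the opposite way. Its spliced forms start at chr13:23621124 or chr13:23621094 on the minus strand, and an intron of 34945 or 34949 bp lies upstream of the coding sequence, which is whole in exon 2 at chr13:23583670-23585970. That exon keeps the hairpin and runs 1861 bases past it. The stem-loop form in RefSeq, at chr13:23585526-23585970 (445 bp), again ends 5 bases past the hairpin. Exon 1 overlaps exons of *Hist1h1e*, a linker histone gene, and of the pseudogene *Gm11398* on the same strand, so reads there cannot be assigned to 1 gene by strand.

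*Hist1h2bp* has a spliced form whose donor lies inside the reading frame, 4 bases before the last base of the stop codon, with exon 1 at chr13:21787461-21787891, an intron of 1132 bp and exon 2 at chr13:21789024-21789213. The hairpin is in no exon of its spliced forms, as in *Hist1h2bc*. The donor and the end of this spliced form, which holds an AATAAA starting 23 bases before it, are shown for comparison with those of *Hist1h2bc*.
*Hist1h2bp* donor: caccagctccaaGTgagttc
*Hist1h2bp* spliced end: tataaaAATAAAggtttcaatcta

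*Hist1h2bc* reached an exon FPKM of 25.4 in replicate 1 compared with 18.2 in replicate 2 (21.8 ± 5.09, SD, n = 2). Both mice were high, and by its mean the gene ranked 1364 of 20515 genes with a usable symbol, at the 93.4th percentile. *Hist1h2be* had an exon FPKM of 0.9 and 0.6 (0.75 ± 0.212, SD, n = 2). This was at the 49.7th percentile, near the median of all genes, which was also 0.75. *Hist1h2bp* was listed at an exon FPKM of 0 in both mice.

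Thus 1 of the 3 genes reached a mean of 1 exon FPKM, compared with 48.0% of all genes, and 2 of the 3 were above 0 in both mice, compared with 63.4%. An exon FPKM of 0 in both mice, as in *Hist1h2bp*, was listed for 30.2% of all genes. With values given to 1 decimal and read counts unknown, a value of 0 allows any FPKM under 0.05.

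The exon FPKM of the 3 genes summed to 26.3 in replicate 1 and 18.8 in replicate 2. This sum of 22.55 ± 5.30 (SD, n = 2) is also that of the H2B class and of the Hist1 cluster, and *Hist1h2bc* accounted for all of it but that of *Hist1h2be*. The exon FPKM of *Hist1h2bc* was 28.2 times that of *Hist1h2be* in replicate 1 and 30.3 times in replicate 2. As a share of all exon FPKM in a mouse, the 3 genes took 0.00308% and 0.00105%. The total over all genes was 852961 in replicate 1 and 1788119 in replicate 2, so the shares differ more between the mice than the FPKM values do. The milk protein gene *Csn2* alone went from an exon FPKM of 108555 to 481937.

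Intron FPKM was low in all 3 genes. It was 0.2 and 0.1 in *Hist1h2bc*, 0.1 in both mice in *Hist1h2be*, and 0 in both mice in *Hist1h2bp*. An intron FPKM above 0 in both mice was listed for 2 of the 3 genes and for 50.4% of all genes. In *Hist1h2bc* the exon FPKM was 127 times the intron FPKM in replicate 1, where rounding alone allows 101 to 170, and 182 times in replicate 2, where it allows 121 to 365. The ratio of the means, 145, was at the 95.05th percentile of the 3078 genes that had a mean of 10 or more in exons and any intron signal, whose median was 28.4 and whose quartiles were 17.5 and 50.9. In *Hist1h2be* the same ratio was 7.5, at the 61.0th percentile of the 902 such genes between 0.5 and 1 in mean exon FPKM, whose median was 6.

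The exon FPKM does not tell the stem-loop form from the spliced form, because exons of all transcripts of a gene were joined by the authors before counting. Exon 1 of *Hist1h2bc* belongs to both forms. How much of its 21.8 FPKM comes from each was not tested.

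H2B genes are near-identical in their coding sequence, which bears on every FPKM given here. Among the 16 other H2B genes with a coding sequence of the same length, identity to *Hist1h2bc* ranged from 87.3% to 99.5%, with a median of 98.1%. Its nearest relatives were *Hist1h2bq* and *Hist1h2br*, each with 2 differing bases. The coding sequences of *Hist1h2bc* and *Hist1h2be* differ at 6 bases in 6 codons, and all 6 are silent, so both genes encode the same protein. *Hist1h2bp* differs from *Hist1h2bc* at 8 bases and 3 residues, and from *Hist1h2be* at 9 bases and 3 residues, and no other of these H2B genes encodes its protein.

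Each 50-base window of the exons was therefore looked up in the whole genome. In *Hist1h2bc*, 2.41% of the 332 windows in the coding sequence were found at 1 place only, with a median of 10.5 places, compared with 97.7% of the 772 windows outside it. In *Hist1h2be*, 17.2% of coding windows and 99.9% of the others were unique, and in *Hist1h2bp* 20.8% and 90.2%. With 100-base windows, 5.32%, 52.1% and 34.4% of coding windows were unique in *Hist1h2bc*, *Hist1h2be* and *Hist1h2bp*. Over all exons, 69.0%, 93.6% and 52.3% of 50-base windows were unique in the same order.

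The unique part of *Hist1h2bc* is thus mainly exon 2, which only the spliced form has. That of *Hist1h2be* lies mainly outside its coding sequence. It is found in exon 2 and in a further GENCODE transcript with 1 exon, at chr13:23618980-23621078 (2099 bp). This transcript does not reach the coding sequence and lies mostly in the intron of the spliced forms. The read length and the handling of multi-mapping reads are not given in the sources used here. Their part in the order of the 3 genes was not tested. *Hist1h2be* had the highest unique share and the middle level, and *Hist1h2bp* had the lowest of both. With 3 genes, a link between unique share and level was not tested.

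**Figure D1:**
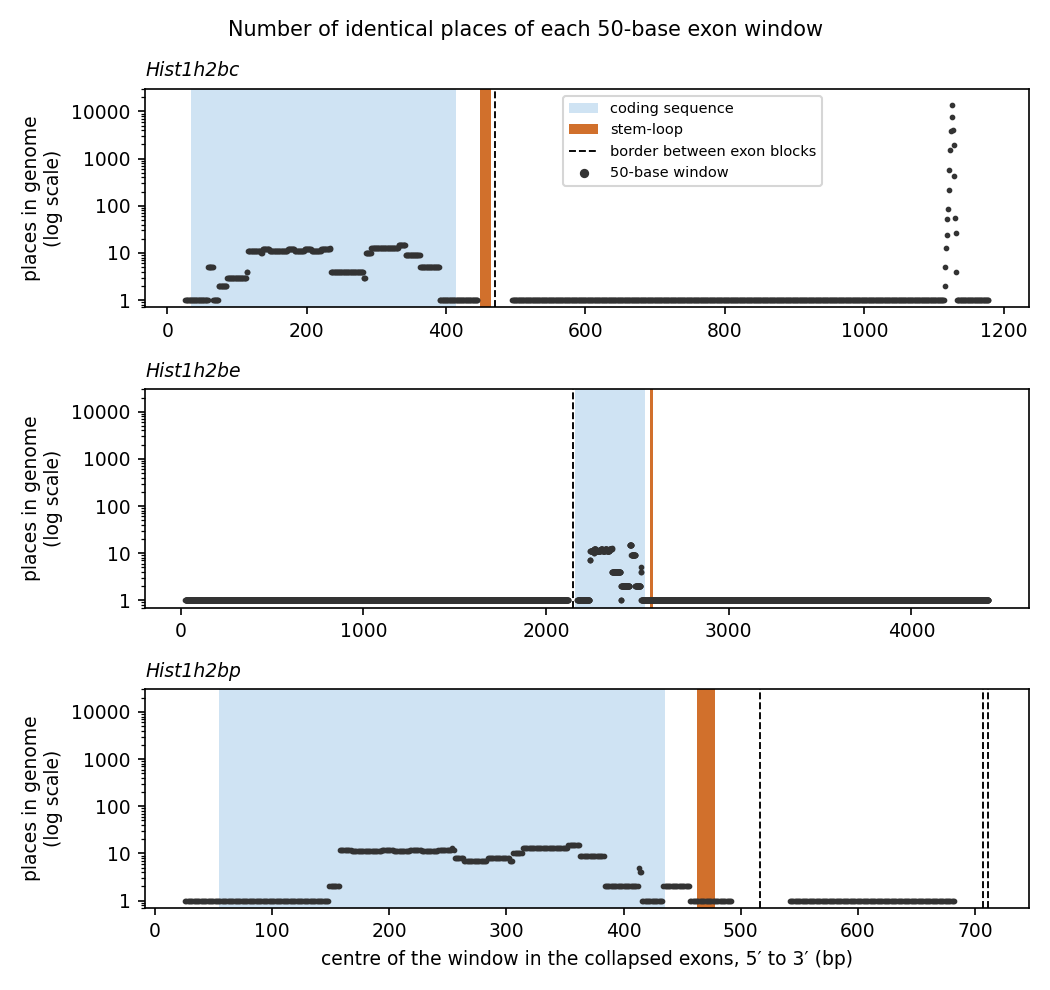
Number of places in the genome (log scale) at which each 50-base window of the collapsed exons is found, plotted against the centre of the window in bp from the 5′ end of the exons, for the 3 genes. Blue marks the coding sequence, orange the stem-loop and dashed lines the borders between exon blocks. In *Hist1h2bc* 2.41% of coding windows and 97.7% of the others sit at 1 place, and a short stretch near the 3′ end, which lies only in the longer GENCODE form, reaches 13527 places.

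Histone variant genes give a scale for these levels. Of 14 variant genes looked for, 8 were listed. *H3f3b*, which encodes H3.3, had an exon FPKM of 36.5 and 41.2, the highest of all listed histone genes and 1.44 and 2.26 times that of *Hist1h2bc* in the same mouse. *H3f3a*, the other H3.3 gene, had 7.9 and 12.3, so that *Hist1h2bc* was 3.22 and 1.48 times higher. *H2afv* had 6.1 and 5.0, and *H2afy*, which encodes macroH2A, had 6.0 and 4.4. The values of these 2 genes overlap between the mice, and their order is not resolved.

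*H2afz*, which encodes H2A.Z, had an exon FPKM of 1.6 and 2.9, so that *Hist1h2bc* was 15.9 and 6.28 times higher. *Hist1h2be* came next, with no overlap with *H2afz* above it or with *Cenpa*, the centromeric H3 gene, at 0.5 and 0.2 below it. *Cenpa* and *H2afy2*, at 0.2 and 0.3, overlap. The oocyte linker histone gene *H1foo* was listed at 0 in both mice, as was *Hist1h2bp*. *Hist1h2bc* thus stood between *H3f3b* and *H3f3a* in both mice, its lower value of 18.2 being above the higher value of *H3f3a*. Of the windows of these exons, 80.1% were unique in *H3f3b*, 74.6% in *H3f3a* and 59.4% in *H2afz*, compared with 69.0% in *Hist1h2bc* and 100% in *H2afy* and *H2afv*.

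**Figure D2:**
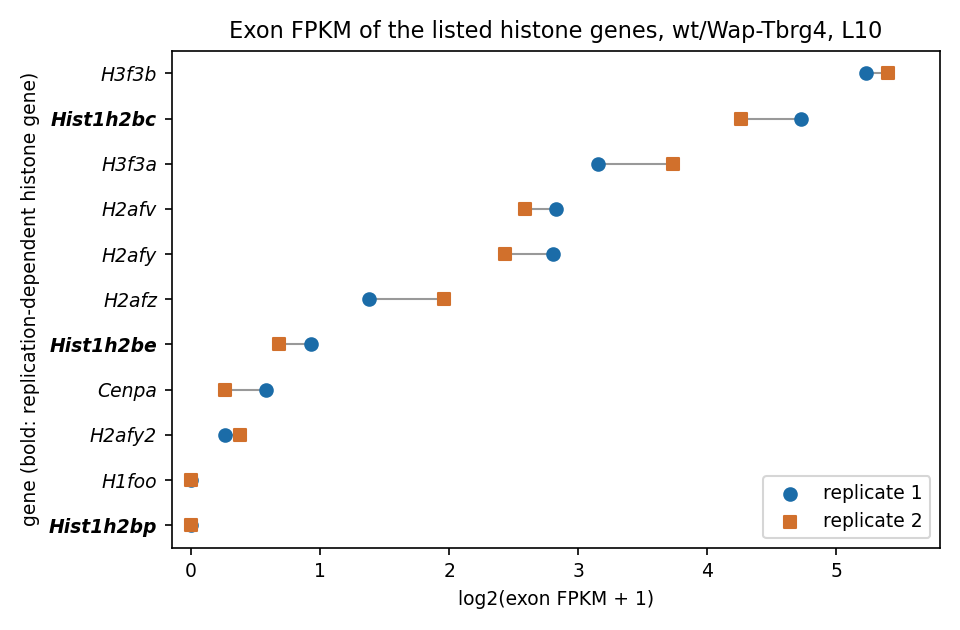
Exon FPKM of the 11 listed histone genes on the scale of log2(exon FPKM + 1), with a point for each mouse and a line between the 2 mice. *Hist1h2bc* at 25.4 and 18.2 FPKM lies below *H3f3b* and above *H3f3a* in both mice, *Hist1h2be* lies below *H2afz*, and *Hist1h2bp* is at 0 with *H1foo*.

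Genes that act on histone transcripts and histone proteins were then set beside the 3 genes. Of 23 genes for the transcription, 3′ end processing and decay of histone mRNA, 21 were listed and 20 reached a mean of 1 exon FPKM, and the 21 ranged from 0.1 to 13 with a median of 5.85. *Slbp*, whose product binds the stem-loop, had an exon FPKM of 2.9 and 2.0. *Npat*, the coactivator of histone transcription, had 2.1 and 3.1. Of the U7 snRNP proteins, *Lsm10* had 6.8 and 9.9 and *Lsm11* had 2.3 and 1.6, and *Cpsf3*, the nuclease that cuts the transcript, had 12 in both mice. *Srrt* was the highest of the list at 17.4 and 8.6, and *Ncbp2*, of the cap-binding complex, came after *Cpsf3* at 8.6 and 9.4. *Coil*, which encodes the Cajal body protein coilin, had 3 and 1.4, and *Zfp473*, which also acts with the U7 snRNP, was the lowest at 0.1 in both mice. All 21 were below *Hist1h2bc* by their mean, as were most genes, since *Hist1h2bc* was at the 93.4th percentile of all genes.

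Of 18 histone chaperone genes, all listed, 16 reached a mean of 1 exon FPKM, and the median was 4.83. *Npm1* was the highest at 18 and 26.8, and it was below *Hist1h2bc* in replicate 1 and above it in replicate 2. *Atrx* and *Ubn1*, which act with the H3.3 chaperones DAXX and HIRA, followed at 18.2 and 16.9 and at 16.7 and 14.5. *Chaf1a*, the large subunit of the chaperone that places histones behind the replication fork, had 0.3 and 0.1, and *Asf1b* had 0.4 and 0.5, while its paralog *Asf1a* had 3.9 and 4.9. The third lowest was *Nap1l1* at 2.0 and 3.0.

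Of 25 genes of S phase and cell division, all listed, 13 reached a mean of 1 exon FPKM, and the list's median of 1.15 was the lowest of the 4 lists. *Mki67*, the proliferation marker Ki-67, stood apart at 24.4 and 24.2, close to *Hist1h2bc*. *Pcna*, the replication clamp, had 8.9 and 7.0, and *Cdk2* had 3.8 and 4.6. *Top2a*, a topoisomerase of dividing cells, had only 1.6 and 1.0. *Ccnb1* and *Cdc6* were the lowest, with mean exon FPKM of 0.05 and 0.1, followed by *Mcm5* and *Gins2*, which tied at 0.2. *Hist1h2bc* was above 24 of the 25 by its mean, all but *Mki67*, which is near its 93.4th percentile among all genes. The median of each list is given beside a median of 0.75 over all 20515 genes, of which 48.0% reached a mean of 1 exon FPKM.

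**Figure D3:**
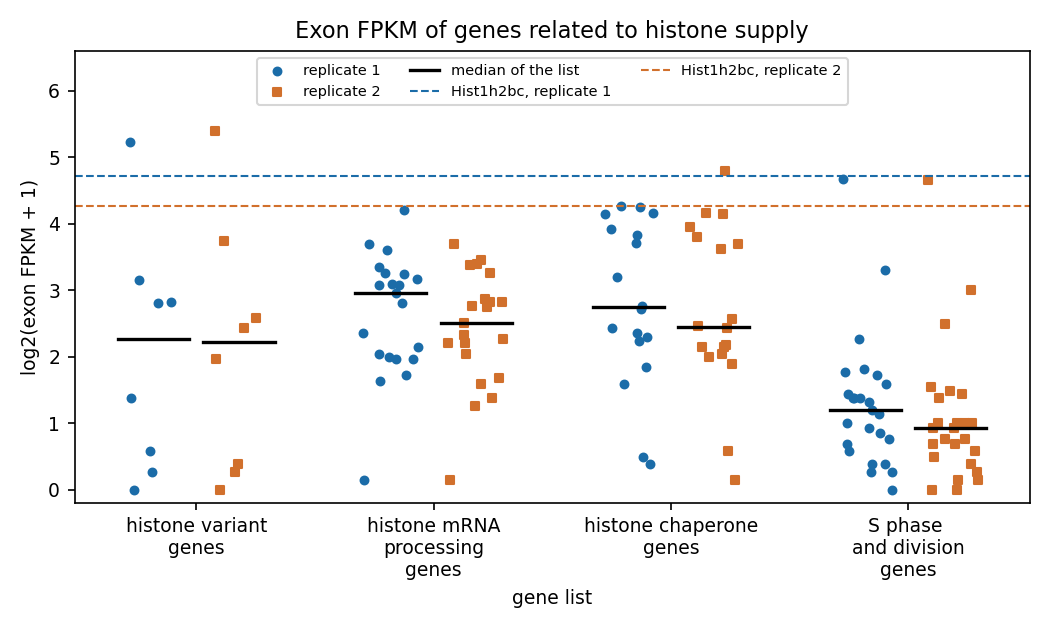
Exon FPKM of the listed genes of 4 lists on the scale of log2(exon FPKM + 1), with a point per gene and mouse, black bars for the median of each list in each mouse and dashed lines at the value of *Hist1h2bc*. Most points lie below *Hist1h2bc* in the same mouse, as do most genes, with *Hist1h2bc* at the 94.17th and 92.15th percentiles of all genes in replicates 1 and 2. The S phase and division genes have the lowest medians, 1.3 in replicate 1 and 0.9 in replicate 2 in FPKM.

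Markers of other cell types were present as well. All 6 secretory luminal markers reached a mean of 1 exon FPKM, as did all 4 adipocyte, 3 endothelial, 3 fibroblast and 3 macrophage markers, while the 3 T cell markers summed to 0.4 and 0.6. The myoepithelial marker *Acta2* was listed at 0, although *Krt14*, *Krt5* and *Oxtr* were not. Of 4 B and plasma cell markers, 2 reached a mean of 1 exon FPKM, as did the 2 listed erythroid markers. The testis markers *Prm1* and *Tnp1* were at 0 in both mice, and *Ddx4*, also of that list, was at 0 and 0.1. In bulk tissue, more transcript per cell and more cells of a type cannot be told apart, and the cell type that carries the *Hist1h2bc* transcript was not tested.

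Between the 2 mice, *Hist1h2bc* was lower in replicate 2, at 0.717 times its exon FPKM in replicate 1. On the scale of log2(FPKM + 1) this is a difference of -0.46 for replicate 2 minus replicate 1. Over the 9845 genes that reached a mean of 1 exon FPKM, the median was -0.08 and the 10th to 90th percentiles ran from -0.78 to 0.50, so *Hist1h2bc*, at the 23.3rd percentile, was inside the usual spread. It was not more than 2-fold apart on this scale, as 5.9% of these genes (581) were. That number was 1102 with a pseudocount of 0.1 and 208 after the GC correction described next, and *Hist1h2bc* was among the genes apart in neither case. Of the 9845 genes, 55.4% were lower in replicate 2 by some amount. *Hist1h2be* was at 0.667 times its value in replicate 1, where rounding allows 0.579 to 0.765.

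The difference between the mice moved with base composition. Across the 9808 genes with a GC value, which are not independent replicates and share the same 2 libraries, Spearman's rho of exon GC content and the log2 ratio was -0.63. *Hist1h2bc* has a GC content of 45.9%, below the median of 49.1%. The 1099 genes within 1 percentage point of it had a median log2 ratio of 0.07, and *Hist1h2bc* was at -0.53 once a lowess fit on GC content was removed. Before this correction the log2 ratio of *Hist1h2bc* was -0.46. The part of base composition in the difference of this gene was not tested.

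The 4 lists did not share 1 direction between the mice. Counts here are over genes that reached a mean of 1 exon FPKM. Lower in replicate 2 were 13 of 20 histone mRNA processing genes, 10 of 16 chaperone genes and 11 of 13 S phase and division genes. Their median log2 ratios were -0.24, -0.10 and -0.31. Of all genes that reached that mean, 55.4% were lower in replicate 2. Of the 5 variant genes that reached it, 2 were lower. *H3f3b*, *H3f3a* and *H2afz* were higher in replicate 2, the opposite direction to *Hist1h2bc*. One gene of the 4 lists, the chaperone gene *Daxx* at 8.2 and 3.4, was more than 2-fold apart on the scale of FPKM + 1. It was lower in replicate 2, as were 4.82% of all genes with that mean by that amount. Without the added 1, *Srrt*, *Coil*, *E2f1* and *Ccne1* were also past 2-fold among the genes of the 4 lists with that mean. All were lower in replicate 2.

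**Figure D4:**
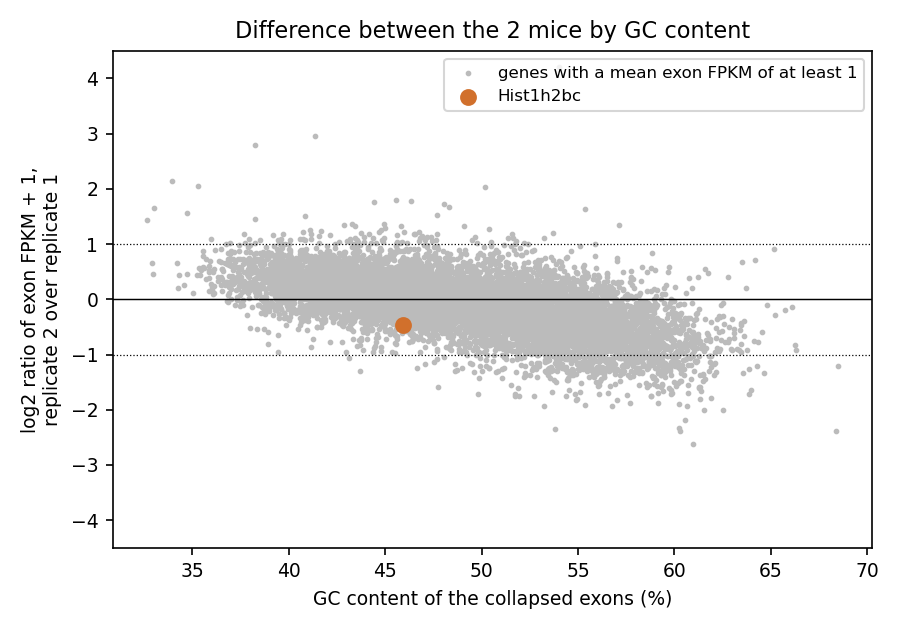
Log2 ratio of exon FPKM + 1, replicate 2 over replicate 1, against the GC content of the collapsed exons in percent, for genes that reached a mean of 1 exon FPKM. Dotted lines mark a 2-fold difference. *Hist1h2bc* at 45.9% GC and -0.46 lies between the dotted lines, below the median of 0.07 of genes with a like GC content.

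Each of the 3 members had another histone gene close by. *Hist1h2ac*, an H2A gene, lies 251 bp from *Hist1h2bc* on the opposite strand, and *Hist1h2an*, also an H2A gene, lies 243 bp from *Hist1h2bp* on the opposite strand. *Hist1h4d*, an H4 gene on the opposite strand, lies 935 bp past the 3′ end of *Hist1h2be*. The annotated miRNA genes *Gm44350*, 527 bp from *Hist1h2bc*, and *Gm44346*, 446 bp from *Hist1h2bp*, lie on the same strand as these members.

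H2B promoters are known for an octamer bound by OCT1, with the letters ATTTGCAT. It was searched on both strands from 250 bases before to 50 bases after each start in RefSeq promoters on GRCm38. In these, *Hist1h2be* and *Hist1h2bp* were matched by gene ID. *Hist1h2bc* was not matched, so no promoter window of it is described here. The start of the *Hist1h2be* stem-loop form held 1 match, which begins 67 bases before it and is shown here with the octamer in capitals.
*Hist1h2be* octamer: aagacttaATTTGCATaagactgc

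No match lay in the window at the upstream start of *Hist1h2be*, where the spliced forms begin, or in that of *Hist1h2bp*. The octamer was found in 1.74% of all 32851 promoters and in 7 of 17 H2B promoters (41.2%). CCAAT was found in all 3 windows, those of *Hist1h2be* and *Hist1h2bp*, in 17 of 17 H2B promoters and in 37.4% of all promoters. TATAAA was found in 1 of the 3 windows, that of *Hist1h2bp*, in 8 of 17 H2B promoters and in 13.6% of all. The match in *Hist1h2bp* is on the opposite strand, 212 bases before the start. CCAAT and TATAAA were searched on both strands as well, and none of the 3 motifs contains another. A match is a description of the sequence and does not show that a factor binds there.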

How the data were processed

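Total RNA libraries (TruSeq Stranded Total RNA) were sequenced by the authors on an Illumina HiSeq system. Per the labels and the methods of the study, reads were mapped with STAR to mm10, exons of all transcripts of a gene were collapsed, reads on exons and introns were counted with HTSeq, and DESeq2 gave FPKM, which were deposited with 1 decimal. Versions are not given in the sources used here. Read counts are unknown, so no interval for counting error was made. Rows without a usable symbol (35) were left out.

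Structures, windows, hairpins and GC content were computed on GRCm38, the assembly of mm10, from GENCODE M21 and RefSeq with Python 3.11.15, numpy 2.4.6, pandas 2.3.3 and statsmodels 0.14.6 (lowess over 30% of the genes). These models may differ from the annotation the authors counted on. A pseudocount of 1 and a minimum mean exon FPKM of 1 were used for ratios between the mice, and a gene counted as apart past 2-fold. The window, hairpin and GC steps were tested on simulated data. The members and lists were chosen with earlier results of these data known. Named genes were the members, the 3 highest and 3 lowest of each list with ties, and a few fixed genes. *H2afy* and *H2afz* were named beyond this rule, so that all listed variant genes are shown. *Lsm10*, *Asf1a*, *Daxx*, *E2f1* and *Ccne1* were added after their values were seen. Levels of the H1, H2A, H3 and H4 genes and of the other H2B genes, among them the testis genes *Hist1h1t*, *Hist1h2aa* and *Hist1h2ba*, were not analysed here.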

Additional observations from a re-analysis of the deposited data

How the results depend on the processing

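Of 46 alternative values, 41 moved by less than the spread between the mice or kept their count, 5 moved and none reversed. The number of members that reached a mean of 1 exon FPKM was 1, and it was 2 with a minimum of 0.5, which takes in *Hist1h2be*. The H2B sum fell from 22.55 to 0.75 without *Hist1h2bc*. The share of the summed exon FPKM rose from 0.00207% to 0.0131% without the 10 highest genes in the sum. The median log2 ratio between the mice was -0.46, and it was -0.25 without the filter on low values, over 3 members in place of 1. It was -1.46, past 2-fold, with each mouse scaled to a sum of 1000000. That scaling moves the median of the genes that reached a mean of 1 exon FPKM to -0.90. The number of genes apart was not counted under it. Of the 9845 genes that reached a mean of 1 exon FPKM, 581 were more than 2-fold apart between the mice. This compares with 1102 with a pseudocount of 0.1 and 208 after the GC correction. Without replicate 1 or 2, the summed exon FPKM was 18.8 and 26.3 and the share 0.00105% and 0.00308%. With 2 mice, leaving out either one stays within 1 SD by construction and says nothing about stability. No paired analysis was possible because both mice belong to 1 group. Depth is unknown, and *Hist1h2be* and *Hist1h2bp* are within a few steps of the rounding.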
